A study of Danio rerio with 6 samples.

Results

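The genes described here encode the Wnt ligands, their receptors and the proteins that process, block or relay the signal. They are the 65 genes, of 19822 in the deposited table, whose symbol begins with the name of a Wnt, Frizzled, Lrp5, Lrp6, Ror, Porcupine, Wls, Dkk, Sfrp, Wif1, Notum, R-spondin, Dishevelled, Axin, beta-catenin, Lef1 or Tcf7 gene. By role they were 12 canonical ligands, 4 noncanonical ligands (wnt4, wnt5a, wnt5b and wnt11), 3 genes of ligand processing, 18 receptors and co-receptors, 12 secreted inhibitors, 3 secreted agonists, 8 cytoplasmic transducers and 5 nuclear factors. Roles were set by gene name, and every other Wnt, wnt16 included, was counted as canonical. Which pathway a ligand used in these fins was not tested. RNA was sequenced from the regenerating caudal fins of adult wild-type zebrafish of the AB line, 3 to 12 months old and of both sexes. One group was injected into the body cavity with Galloflavin, an inhibitor of lactate dehydrogenase, at 0.12 mg per g in DMSO, and the other with DMSO alone. All fish regenerated at 33 °C, and the regenerate was collected with 1 adjoining ray segment 24 h after amputation. The time of injection is not given in the sources used here. A library was made from 10 pooled fins, with 3 libraries for Galloflavin and 3 for DMSO, and a Galloflavin and a DMSO library formed each of the labelled batches B1, B2 and B3.

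In canonical Wnt signalling a secreted Wnt binds a Frizzled receptor and its co-receptor Lrp5 or Lrp6, Dishevelled is recruited, and the Axin complex that marks beta-catenin for destruction is switched off. Beta-catenin then enters the nucleus and works with Lef1 and Tcf7 proteins, and axin2 and lef1 are among the genes it commonly induces. Noncanonical Wnts signal without beta-catenin, partly through Ror receptors, to cell polarity and movement. In the zebrafish fin, canonical signalling is required for blastema formation and outgrowth, wnt10a is induced after amputation, and wnt5b is known as an inhibitor of regeneration.

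Sequencing depth over the listed genes was 17712157 to 29596335 reads per library and was least in Galloflavin B3 and DMSO B3. Between these 2 libraries the chi-square of the counts was lowest (11.1 per degree of freedom), followed by DMSO B1 and DMSO B2 (13.1). All other pairs were at 33.5 to 58.0, and every pair differed by more than sampling noise. The measure rises with depth, so it does not rank the 2 lowest pairs by likeness. The deposited unit is a normalised count, in which 1 read is worth 0.0338 to 0.0543, and 3 reads, set here as the detection floor, 0.102 to 0.163. This floor covers counting error only. Values are not scaled for gene length, so levels are compared between libraries and not between genes. Epidermal and mesenchymal markers were abundant in every library. The 7 basal epidermis markers summed to 57110.0 to 72106 normalised counts with Galloflavin and 54820.0 to 73836 with DMSO, and 11 blastema and fin mesenchyme markers to 651 to 713 with Galloflavin and 617 to 753 with DMSO. Most of the basal epidermis sum is the keratin gene krt5, at 52152 to 67989 with Galloflavin and 51797 to 70772 with DMSO. The muscle gene ckma stayed at 0.386 to 1.74 with Galloflavin and 0.169 to 0.530 with DMSO. In bulk tissue, fewer cells of a type and less RNA per cell cannot be told apart.

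The comparison of Galloflavin with DMSO asks how Wnt gene expression stands early in regeneration when the inhibitor has been injected. No Wnt gene passed the test (limma, Benjamini-Hochberg adjusted p of at most 0.05), and neither did any other of the 15806 genes with a mean of at least 1 (0%). The lowest unadjusted p-values lay among secreted inhibitors, ligands and a Dishevelled gene: wif1 and wnt9b were higher in every Galloflavin library than in any DMSO library, and sfrp2, wnt4 and dvl1b were lower. The readouts axin2 and lef1 and the ligands wnt10a, wnt5a and wnt5b overlapped between the groups. Of the 65 Wnt genes 59 reached a mean of 1, and the lowest adjusted p among them was 0.602. At an unadjusted p under 0.05 stood 5 of these, or 8.47%, beside 7.21% of all genes tested. The groups did not overlap for 8, or 13.6%, beside 13.4%. These shares lie near the background. On the recovered reads 0 Wnt genes passed with edgeR (0% of all genes) and 0 with DESeq2 (0.525% of all genes), with 5 at an unadjusted p under 0.05 in each (beside 7.21% of all genes in edgeR and 7.34% in DESeq2). With batch as a block in DESeq2, 1 Wnt gene passed, wif1, beside 1% of all genes.

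**Figure D1:**
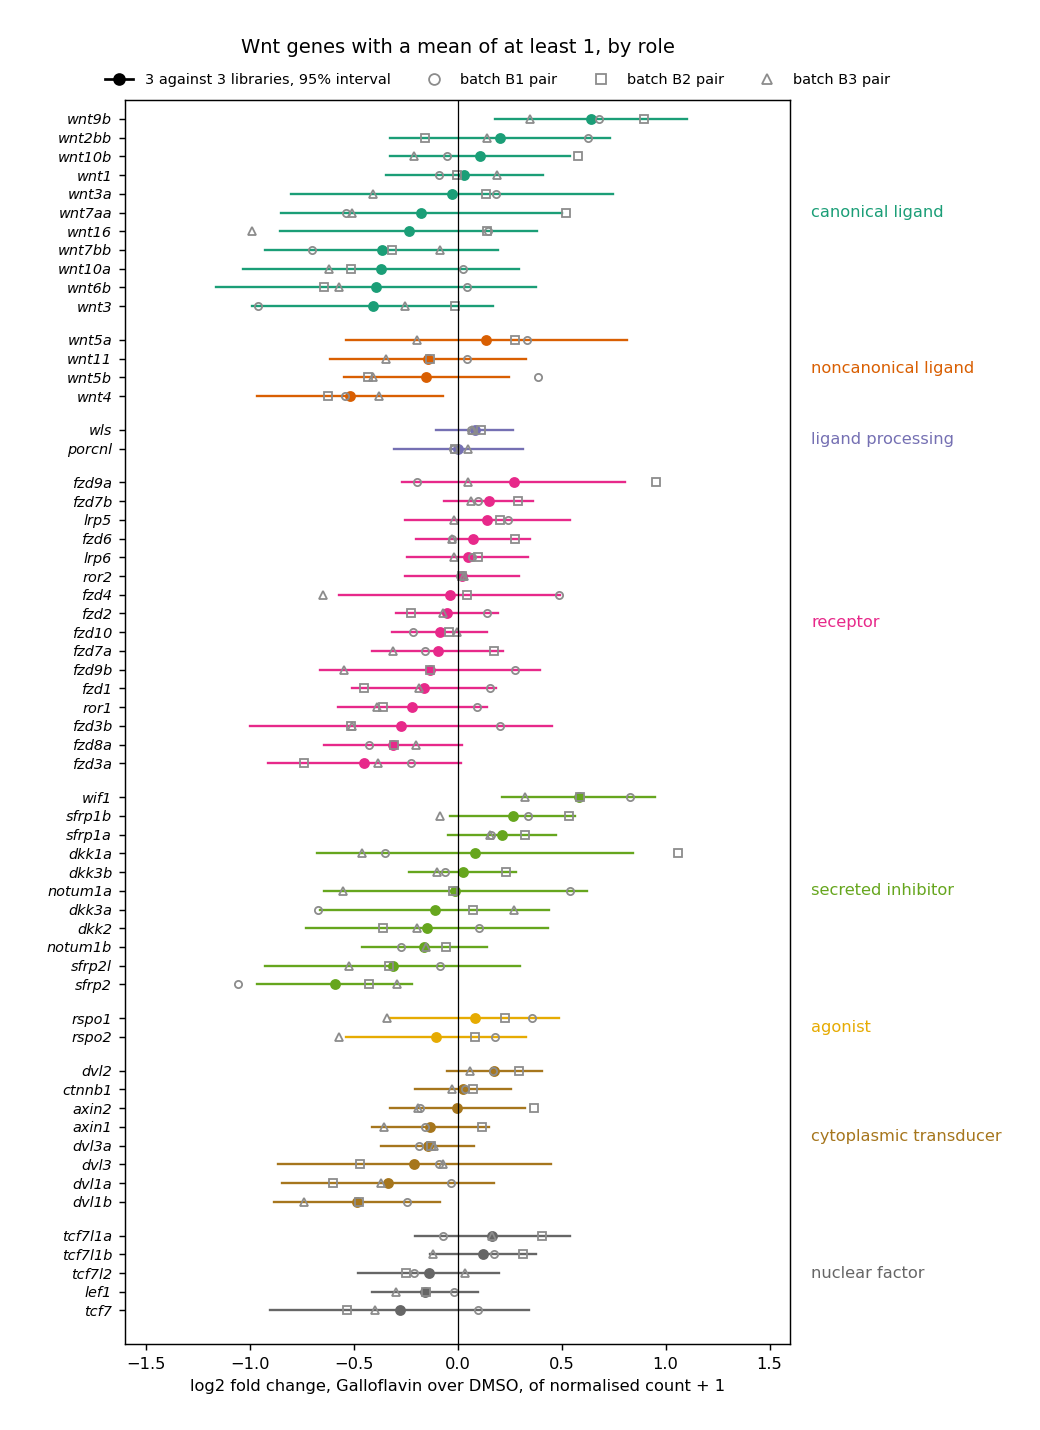
Log2 fold change, Galloflavin over DMSO, of the normalised count plus 1, for the 59 Wnt genes with a mean of at least 1, grouped by role. Filled points with bars are the fit over 3 against 3 libraries with its 95% interval, and open symbols are the difference within each batch. The intervals of wif1 and wnt9b lie above 0 and those of sfrp2, wnt4 and dvl1b below 0; all others cross 0.

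Among the secreted inhibitors, wif1 (ENSDARG00000005541), which binds Wnt ligands outside the cell, had normalised counts of 112, 91.0 and 108 in Galloflavin B1, B2 and B3, against 62.4, 60.2 and 86.0 in DMSO B1, B2 and B3. The lowest Galloflavin library lay above the highest DMSO library, and the difference was smallest in B3, where the DMSO library was high. Its group means were 104 ± 11.1 with Galloflavin and 69.5 ± 14.3 with DMSO (SD, n = 3 each), a ratio of 1.49 and a log2 fold change of 0.58 ± 0.16 (SE; 95% interval 0.21 to 0.95; limma adjusted p = 0.602). With batch as a block, DESeq2 on the recovered reads gave an adjusted p of 0.0238, within a range of 0.0238 to 1.00 over 19 alternatives. In the other direction, sfrp2 (ENSDARG00000070050), a secreted Frizzled-related protein that binds Wnts, had 8.91, 11.7 and 11.6 in Galloflavin B1, B2 and B3, against 19.6, 16.01 and 14.4 in DMSO B1, B2 and B3. Every Galloflavin library was below every DMSO library, with the widest gap in B1. The ratio of its means was 0.643 and the log2 fold change -0.59 ± 0.16 (95% interval -0.96 to -0.22; limma adjusted p = 0.602).

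The related sfrp1a and sfrp1b encode inhibitors of the same type. For sfrp1a the values were 92.1, 88.5 and 99.7 with Galloflavin, against 82.3, 70.5 and 89.3 with DMSO, and for sfrp1b 61.6, 62.0 and 53.8 with Galloflavin, against 48.5, 42.4 and 57.1 with DMSO. Both had higher means with Galloflavin (log2 fold changes 0.21 ± 0.11 and 0.27 ± 0.13), with overlapping groups and with sfrp1b lower in the B3 pair. The gene sfrp2l stood at 8.14, 9.68 and 12.3 with Galloflavin, against 8.70, 12.4 and 18.1 with DMSO, lower with Galloflavin in each batch but overlapping between groups (-0.31 ± 0.26). The Dickkopf protein Dkk1 blocks Lrp5 and Lrp6. Its gene dkk1a had 8.56, 16.5 and 6.13 in Galloflavin B1, B2 and B3, against 11.2, 7.38 and 8.80 in DMSO B1, B2 and B3, where Galloflavin B2 was the highest library and Galloflavin B3 the lowest. The second copy, dkk1b, at a mean of 0.623, was not tested. It had 5, 15 and 16 reads in Galloflavin B1, B2 and B3 and 23, 15 and 13 in DMSO B1, B2 and B3. The level of dkk3b, a divergent member of the family, was 108 ± 14.0 with Galloflavin and 105 ± 3.82 with DMSO (SD, n = 3 each), and dkk2 and dkk3a averaged 2.22 and 1.13 over the 6 libraries with log2 fold changes of -0.15 ± 0.25 and -0.11 ± 0.23. Notum removes the lipid that Wnts need to bind Frizzled. Its gene notum1a, at 12.6, 9.56 and 12.05 in Galloflavin B1, B2 and B3, against 8.35, 9.71 and 18.1 in DMSO B1, B2 and B3, was highest in DMSO B3, and the Galloflavin library was the higher of its pair in B1 alone. The mean of notum1b with Galloflavin was 0.882 times that with DMSO, and the groups did not overlap (-0.16 ± 0.13; 95% interval -0.46 to 0.14). Of the 11 inhibitors tested, 5 were above 0 and 6 below, with a median of -0.01.

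**Figure D2:**
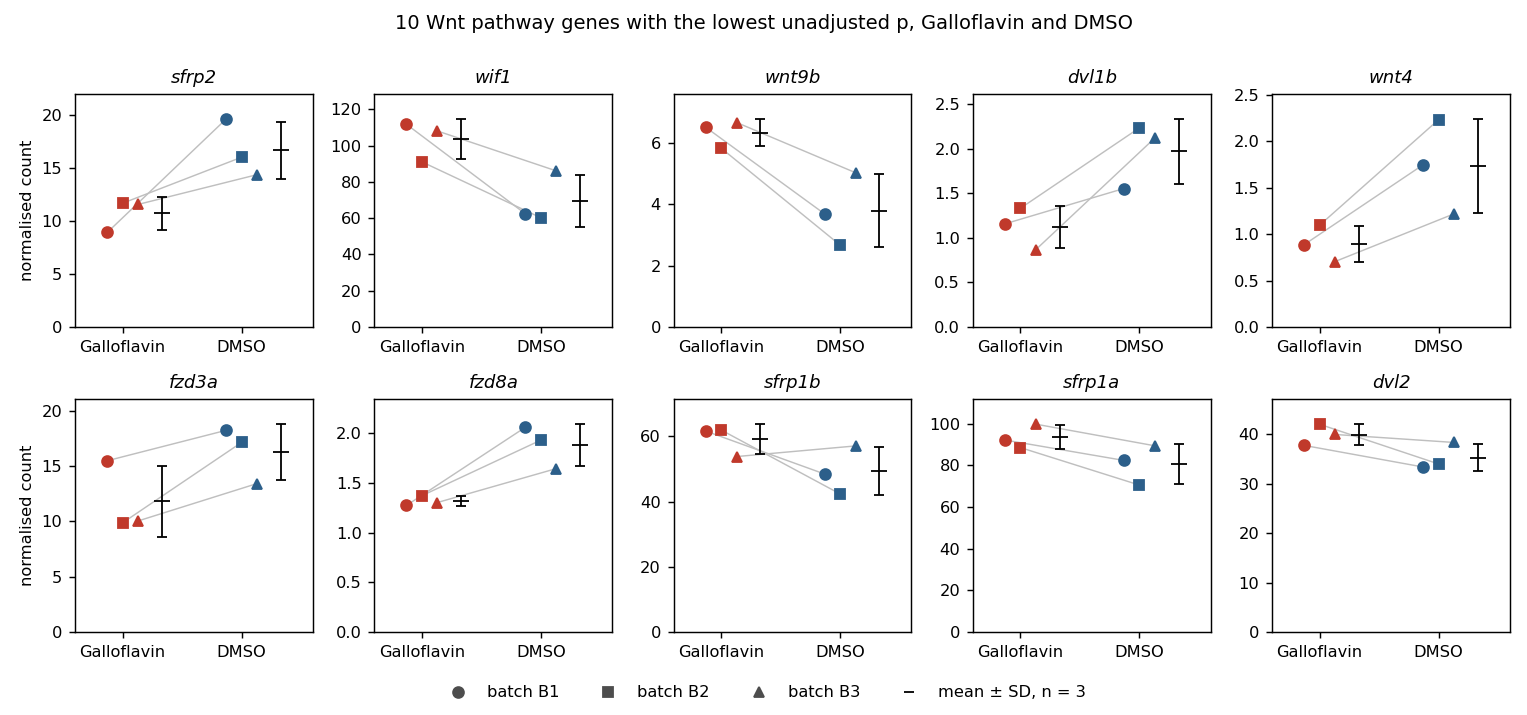
Normalised counts in each library for the 10 Wnt genes with the lowest unadjusted p, Galloflavin (red) and DMSO (blue), with grey lines joining the libraries of a batch. Bars give the mean ± SD of 3 libraries. The groups do not overlap for wif1, wnt9b, sfrp2, dvl1b, wnt4 and fzd8a, and they do for fzd3a, sfrp1a, sfrp1b and dvl2.

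Among the canonical ligands the lowest unadjusted p was that of wnt9b (ENSDARG00000037889), at 6.52, 5.84 and 6.67 in Galloflavin B1, B2 and B3, against 3.69, 2.67 and 5.04 in DMSO B1, B2 and B3. All Galloflavin libraries were above all DMSO libraries, and the ratio of the means was 1.67 (log2 fold change 0.64 ± 0.20; 95% interval 0.18 to 1.101; limma adjusted p = 0.602). The ligand gene wnt10a (ENSDARG00000017155) had 9.41, 7.95 and 4.29 in Galloflavin B1, B2 and B3, against 9.24, 11.8 and 7.10 in DMSO B1, B2 and B3. It was level in B1 and lower with Galloflavin in B2 and B3, with a log2 fold change of -0.37 ± 0.28 (95% interval -1.03 to 0.29; limma adjusted p = 0.810). For wnt3 the counts were 3.43, 7.56 and 4.78 with Galloflavin, against 7.61, 7.65 and 5.88 with DMSO, with Galloflavin B1 the lowest (-0.41 ± 0.25). The gene wnt7aa, whose libraries ranged from 14.5 to 34.5, was lower with Galloflavin in B1 and B3 and higher in B2 (-0.17 ± 0.29). Values for wnt7bb were 1.89, 2.66 and 4.34 with Galloflavin, against 3.69, 3.55 and 4.67 with DMSO, lower with Galloflavin in each batch with overlapping groups (-0.37 ± 0.24).

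The remaining canonical ligands were scarce. The gene wnt3a was covered by 54, 52 and 8 reads in Galloflavin B1, B2 and B3 and by 44, 52 and 17 in DMSO B1, B2 and B3, and both B3 libraries were low whatever the injection (-0.03 ± 0.33 between the groups). The genes wnt1, wnt2bb, wnt6b, wnt10b and wnt16 averaged 1.14, 1.26, 2.74, 2.74 and 1.20 normalised counts over the 6 libraries, with log2 fold changes of 0.03, 0.20, -0.39, 0.11 and -0.23. The gene wnt9a, at a mean of 0.867, was not tested. Of the 11 canonical ligands tested, 7 were below 0, with a median of -0.17.

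Of the 4 noncanonical ligands, wnt4 (ENSDARG00000071208) was lower in every Galloflavin library than in any DMSO library, at 0.887, 1.097 and 0.705 in Galloflavin B1, B2 and B3, against 1.75, 2.23 and 1.22 in DMSO B1, B2 and B3. These values rest on 13 to 28 reads with Galloflavin and 23 to 66 with DMSO. The ratio of its means was 0.517 and the log2 fold change, which the added count of 1 holds closer to 0, was -0.52 ± 0.19 (95% interval -0.96 to -0.07; limma adjusted p = 0.666). The inhibitor of fin regeneration wnt5b (ENSDARG00000102464) had 89.5, 70.1 and 62.1 in Galloflavin B1, B2 and B3, against 68.2, 94.8 and 82.7 in DMSO B1, B2 and B3. It was higher with Galloflavin in B1 and lower in B2 and B3, and the groups overlapped (-0.15 ± 0.17; 95% interval -0.55 to 0.25; limma adjusted p = 0.886). Its paralog wnt5a (ENSDARG00000104973) had 54.4, 68.5 and 82.9 in Galloflavin B1, B2 and B3, against 43.0, 56.4 and 95 in DMSO B1, B2 and B3. Within each group B1 was the lowest and B3 the highest library, and the Galloflavin library was the higher of its pair in B1 and B2 but not in B3 (0.14 ± 0.29; 95% interval -0.54 to 0.81). The fourth, wnt11, was at 6.64 ± 1.80 with Galloflavin and 7.30 ± 0.923 with DMSO (SD, n = 3 each) (-0.14 ± 0.20).

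Wnts are given a lipid by Porcupine and carried to the cell surface by Wls. The gene wls (ENSDARG00000009534) had the smallest spread of the 59 genes tested, at 187, 197 and 199 in Galloflavin B1, B2 and B3, against 179, 182 and 190.0 in DMSO B1, B2 and B3, and its highest library was 1.116 times its lowest. The log2 fold change was 0.08 ± 0.08 (95% interval -0.10 to 0.27; limma adjusted p = 0.861). Of the Porcupine genes, porcnl was at 7.33 ± 0.737 with Galloflavin and 7.31 ± 0.753 with DMSO (SD, n = 3 each). For porcn 2, 2 and 1 reads were counted in Galloflavin B1, B2 and B3, against 9, 9 and 3 in DMSO B1, B2 and B3, and no fold is given at this depth. The largest spread was that of wnt3a, whose highest library was 4.80 times its lowest, and the median of this ratio was 1.76 over the Wnt genes tested and 1.498 over all genes tested. Counting error widens the ratio in scarce genes such as wnt3a, with 8 reads in Galloflavin B3. The 2 medians were not matched for level.

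In the main limma fit, without a block, no receptor gene had an unadjusted p under 0.05. Of 16 tested, 10 were below 0 and 6 above, with a median log2 fold change of -0.07 and a range of -0.45 to 0.27. The fzd10 gene (ENSDARG00000068213) had 149, 159 and 144 in Galloflavin B1, B2 and B3, against 172, 164 and 144 in DMSO B1, B2 and B3. These groups overlapped (-0.08 ± 0.10; 95% interval -0.31 to 0.14). The co-receptor genes lrp5 and lrp6 were at 59.2 ± 11.9 with Galloflavin and 53.1 ± 6.67 with DMSO (SD, n = 3 each) and at 53.2 ± 5.09 with Galloflavin and 51.5 ± 6.51 with DMSO (SD, n = 3 each), and ror2, a receptor for Wnt5 proteins, at 48.3 ± 5.02 with Galloflavin and 47.6 ± 4.91 with DMSO (SD, n = 3 each). Their log2 fold changes were 0.14 ± 0.17, 0.05 ± 0.12 and 0.02 ± 0.12.

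The lowest log2 fold change among the receptors was that of fzd3a (ENSDARG00000021664), a Frizzled of the polarity pathway, at 15.5, 9.87 and 10.04 in Galloflavin B1, B2 and B3, against 18.2, 17.1 and 13.4 in DMSO B1, B2 and B3. It was lower with Galloflavin in each batch, but Galloflavin B1 was above DMSO B3 (-0.45 ± 0.20; 95% interval -0.91 to 0.02; limma adjusted p = 0.690). With batch as a block, 10% of all genes in limma, 9.82% in edgeR and 6.51% in DESeq2 had an unadjusted p under 0.05. For fzd3a these p-values were 0.0179 in limma, 0.0161 in edgeR and 0.0244 in DESeq2. Adjusted, these were 0.414 in limma, 0.418 in edgeR and 0.518 in DESeq2 for fzd3a. Its copy fzd3b, at 13.7, 9.09 and 5.48 with Galloflavin, against 11.8, 13.4 and 8.22 with DMSO, was higher with Galloflavin in B1 and lower in B2 and B3 (-0.27 ± 0.31). For fzd8a the values were 1.27, 1.37 and 1.302 with Galloflavin, against 2.06, 1.93 and 1.64 with DMSO, without overlap, on 24 to 35 reads with Galloflavin and 31 to 57 with DMSO (-0.31 ± 0.14; limma adjusted p = 0.692). The opposite case was fzd7b, at 43.9, 47.5 and 41.2 with Galloflavin, against 41.0, 38.7 and 39.4 with DMSO, all Galloflavin libraries being above all DMSO libraries by a small margin (0.15 ± 0.09). The other receptors, fzd1, fzd2, fzd4, fzd6, fzd7a, fzd9a, fzd9b and ror1, lay between -0.22 and 0.27, and fzd5 and fzd8b, at means of 0.509 and 0.152, were not tested.

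R-spondins raise Wnt signalling by keeping Frizzled at the cell surface, and their genes were scarce. The values of rspo1 were 2.97, 2.51 and 2.01 with Galloflavin, against 2.10, 2.00 and 2.81 with DMSO, overlapping and lower with Galloflavin in B3 only (0.08 ± 0.17). The mean of rspo2 was 1.44 over the 6 libraries (-0.10 ± 0.18), and rspo3, at 0.601, was not tested.

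Among the cytoplasmic transducers, ctnnb1 (ENSDARG00000014571), which encodes beta-catenin, also a component of cell junctions, had 1057, 1194 and 1053 in Galloflavin B1, B2 and B3, against 1031, 1135 and 1072 in DMSO B1, B2 and B3. The 6 libraries lay within a factor of 1.16 and the log2 fold change was 0.03 ± 0.10 (95% interval -0.20 to 0.26). Messenger RNA levels do not show how much beta-catenin protein was stable or nuclear. Dishevelled proteins relay the signal from Frizzled. The values of dvl1b (ENSDARG00000055552) were 1.16, 1.33 and 0.868 in Galloflavin B1, B2 and B3, against 1.55, 2.23 and 2.12 in DMSO B1, B2 and B3, without overlap, on 16 to 34 reads with Galloflavin and 40 to 66 with DMSO. Its ratio of means was 0.568 and the log2 fold change -0.49 ± 0.17 (95% interval -0.88 to -0.09; limma adjusted p = 0.644). The gene dvl2 was instead at 37.7, 42.0 and 39.9 with Galloflavin, against 33.4, 34.0 and 38.3 with DMSO, higher with Galloflavin in each batch (0.18 ± 0.10), with Galloflavin B1 below DMSO B3. The genes dvl1a, dvl3 and dvl3a had log2 fold changes of -0.33 ± 0.22, -0.21 ± 0.28 and -0.14 ± 0.10, each below 0 in all 3 batches and each with overlapping groups.

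The axin genes encode scaffolds of the destruction complex, and axin2 (ENSDARG00000100149) is also widely used as a readout of canonical signalling. Its normalised counts were 40.9, 53.5 and 46.9 in Galloflavin B1, B2 and B3, against 46.5, 41.2 and 53.6 in DMSO B1, B2 and B3. The group means, 47.1 ± 6.31 with Galloflavin and 47.1 ± 6.21 with DMSO, were almost equal, and the libraries of a batch differed in both directions. The 95% interval of the log2 fold change, unadjusted for the number of genes tested, was -0.32 to 0.32, and a change within these bounds is not excluded. The interval does not give the smallest change that the test could detect with 3 libraries a group. For axin1 the log2 fold change was -0.13 ± 0.12.

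Of the nuclear factors, lef1 (ENSDARG00000031894), a marker of the basal wound epidermis in fins, had 66.5, 70.4 and 57.8 in Galloflavin B1, B2 and B3, against 67.3, 78.4 and 71.1 in DMSO B1, B2 and B3. It was lower with Galloflavin in each batch, by little in B1, and the groups overlapped (-0.15 ± 0.11; 95% interval -0.41 to 0.10; limma adjusted p = 0.794). The values of tcf7 were 23.2, 20.6 and 32.6 with Galloflavin, against 21.6, 30.2 and 43.3 with DMSO, with both B3 libraries highest in their group (-0.28 ± 0.27; 95% interval -0.90 to 0.34). Repressor-type factors tcf7l1a and tcf7l1b stood at 0.17 ± 0.16 and 0.12 ± 0.11, and tcf7l2 at -0.14 ± 0.14.

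**Figure D3:**
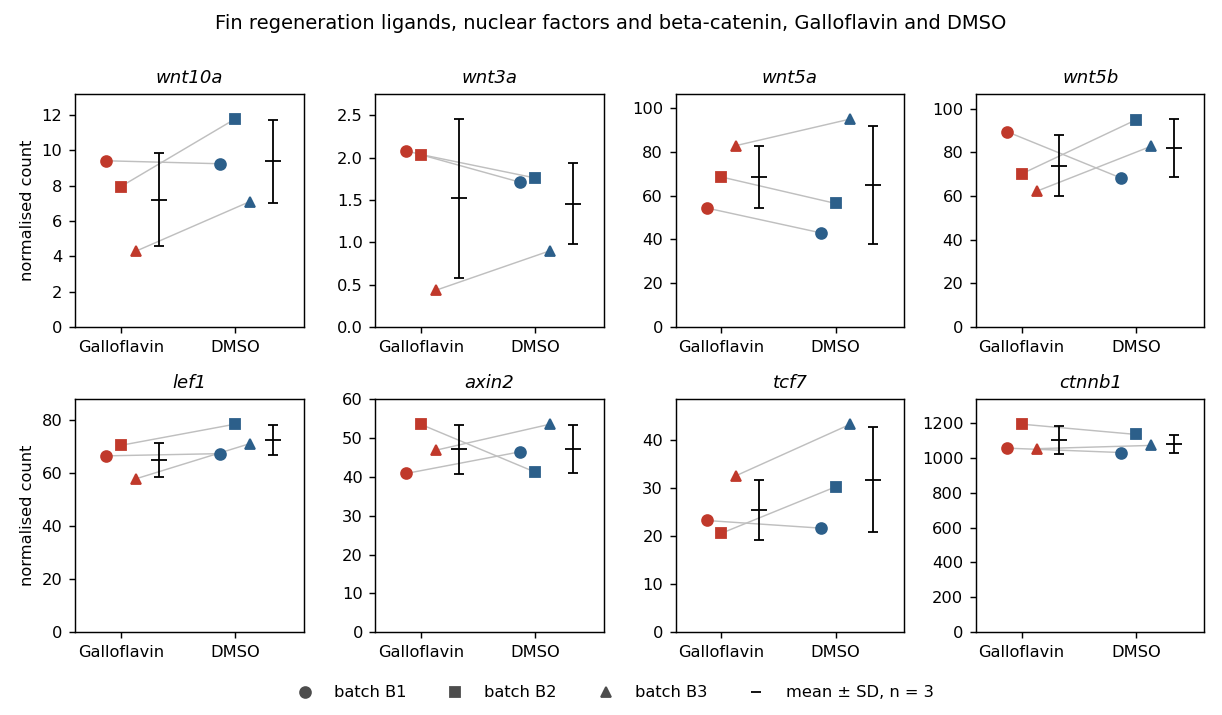
Normalised counts in each library for wnt10a, wnt3a, wnt5a, wnt5b, lef1, axin2, tcf7 and ctnnb1, Galloflavin (red) and DMSO (blue), with grey lines joining the libraries of a batch. Bars give the mean ± SD of 3 libraries. The groups overlap in all 8 panels, and B3 (triangles) is lowest for wnt3a and wnt10a and highest for wnt5a and tcf7 in both groups.

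Across the family, 36 of the 59 genes tested, or 61.0%, were lower with Galloflavin, beside 50.9% of all genes. Their median log2 fold change was -0.10, beside -0.004 for all genes tested. In B3 45 of the 59 were lower with Galloflavin (76.3%, beside 49.9% of all genes), and the median difference was -0.19. In B1 and B2 28 and 30 were lower (47.5% and 50.8%, beside 48.8% and 51.9%), with medians of 0.02 and -0.0026. The family median was -0.01 without Galloflavin B3, -0.03 without DMSO B3 and -0.0075 without the B3 pair, and it was below 0 in all 19 alternatives run (-0.12 to -0.0075). The medians of -0.01 and -0.0075 lie near the -0.004 of all genes in the main fit. The medians of all genes in the other settings are not given here. Each batch holds 1 library of each group, and its difference has no replicate check. Genes lower in all 3 batches numbered 14 (23.7%, beside 16.4% of all genes) and genes higher in all 3 numbered 7 (11.9%, beside 17%).

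**Figure D4:**
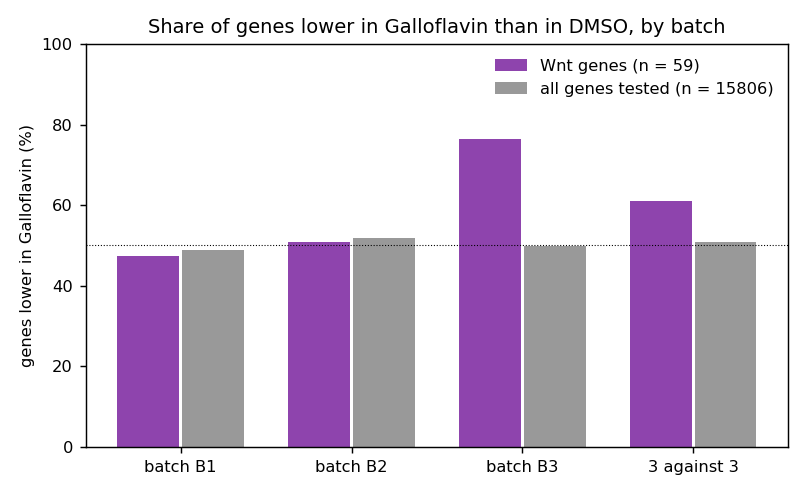
Percentage of genes lower in Galloflavin than in DMSO within each batch and in the fit over 3 against 3 libraries, for the 59 Wnt genes and for all 15806 genes tested; the dotted line marks the midpoint. Wnt genes stand at 76.3% in B3, beside 47.5% in B1 and 50.8% in B2, while all genes lie between 48.8% and 51.9%.

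How the family varied between batches was tested as B3 against the mean of B1 and B2, with the injection in the fit. Of all genes 117, or 0.74%, had a limma adjusted p of at most 0.05, and 0 Wnt genes did. On the recovered reads 0 Wnt genes passed with edgeR (beside 0.0633% of all genes) and 2, wnt5a and tcf7, with DESeq2 (beside 3.87%). At an unadjusted p under 0.05 stood 14 Wnt genes (23.7%, beside 18.4% of all genes), 10 lower and 4 higher in B3. All genes leaned the same way at this threshold, with 11.7% lower and 6.7% higher in B3. Both B3 libraries lay outside the range of the other 4 for 18 (30.5%, beside 28.2%). The genes that follow were chosen after their values were seen. The largest positive differences were those of wnt5a, with 82.9 and 95 in Galloflavin B3 and DMSO B3 against 54.4, 68.5, 43.0 and 56.4 in Galloflavin B1, Galloflavin B2, DMSO B1 and DMSO B2 (0.68 ± 0.13 on the log2 scale, limma adjusted p = 0.0872), and tcf7, with 32.6 and 43.3 in Galloflavin B3 and DMSO B3 against 23.2, 20.6, 21.6 and 30.2 in Galloflavin B1, Galloflavin B2, DMSO B1 and DMSO B2 (0.64 ± 0.15, limma adjusted p = 0.123). Negative differences were those of wnt10a (-0.68 ± 0.18, limma adjusted p = 0.139), wnt3a (-0.81 ± 0.20), wnt6b (-0.80 ± 0.20), fzd3b (-0.74 ± 0.19), dvl3 (-0.67 ± 0.17) and lrp5 (-0.39 ± 0.10). Calls in limma changed with the libraries used, also over all genes, of which 0.74% passed with every library in. Without Galloflavin B1, 2 Wnt genes passed, wnt5a and tcf7 (beside 2.27% of all genes). Without DMSO B1, 3 passed, wnt6b, wnt10a and fzd3b (beside 4.11%). These shares lie near the background. Of the 6 superficial epidermis markers in the table, krt4 and agr1 were lowest in both B3 libraries, krt92 was highest in both, and evpla, ppl and cyt1 overlapped. The keratin gene krt4 makes up most of their sum and had 5807 and 5080.0 in Galloflavin B3 and DMSO B3 against 9087, 13699, 10849 and 13578 in Galloflavin B1, Galloflavin B2, DMSO B1 and DMSO B2 (-1.099 ± 0.14, limma adjusted p = 0.0453). Its part in the differences of the Wnt genes was not tested.

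Position in the genome was looked up for the 65 genes in the RefSeq annotation of GRCz12tu, which holds 64 of the symbols and is another assembly than the one used for alignment, so no coordinates are given. In 3 cases 2 of the genes are next to each other among protein-coding genes: wnt6b and wnt10a, wnt3a and wnt9a, and wnt1 and wnt10b. The pair wnt6b and wnt10a had a like order of libraries, with 3.43, 2.39 and 1.03 with Galloflavin, against 3.30, 4.30 and 2.01 with DMSO for wnt6b. Both were level in B1, lower with Galloflavin in B2 and B3, and lowest in B3. The gene fzd3b, in none of these pairs, was also lower with Galloflavin in B2 and B3 and lowest in B3, but higher in B1. Whether position has a part in the likeness was not tested. In the pair wnt3a and wnt9a the B3 libraries were the lowest for wnt3a and the highest for wnt9a. Normalised counts of wnt9a were 0.926, 0.548 and 1.14 with Galloflavin, against 0.816, 0.711 and 1.06 with DMSO. They rest on 24, 14 and 21 reads in Galloflavin B1, B2 and B3 and 21, 21 and 20 in DMSO B1, B2 and B3. The B3 libraries were thus highest only after scaling for depth, and wnt9a was not tested. The 2 genes wnt1 and wnt10b had log2 fold changes of 0.03 ± 0.16 and 0.11 ± 0.19.

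Other genes of the pathway were read from lists of the destruction complex, Frizzled turnover, further inhibitors, nuclear co-factors, planar cell polarity and reported targets. Of 82 genes listed, 69 were in the table and 64 reached a mean of 1. In limma 0 passed in either direction, and 7 were at an unadjusted p under 0.05 (10.9%, beside 7.21% of all genes), 3 of them above 0 and 4 below. Over all genes 4.18% were above 0 and 3.03% below at this threshold. The groups did not overlap for 9 (14.1%, beside 13.4% of all genes), a share near the background. Of these 64 genes 47 were below 0 (73.4%, beside 50.9% of all genes), with a median log2 fold change of -0.08. In B1, B2 and B3 46.9%, 62.5% and 65.6% were lower with Galloflavin, beside 48.8%, 51.9% and 49.9% of all genes. Below 0 were 15 of 16 nuclear co-factors (median -0.10), 8 of 9 further inhibitors (-0.10), 8 of 11 reported targets (-0.15), 10 of 17 polarity genes (-0.05), 5 of 10 genes of the destruction complex (-0.01) and 3 of 3 genes of Frizzled turnover and R-spondin reception (-0.21). By batch, nuclear co-factors lower in B1, B2 and B3 numbered 7, 13 and 12, further inhibitors 5, 5 and 8, and reported targets 8, 6 and 6.

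The kinase gene gsk3bb, whose product phosphorylates beta-catenin for destruction, had 15.9, 19.2 and 10.04 in Galloflavin B1, B2 and B3, against 7.54, 9.44 and 7.10 in DMSO B1, B2 and B3. Every Galloflavin library lay above every DMSO library (0.79 ± 0.23; limma adjusted p = 0.602; DESeq2 with batch as a block 0.0236, within 0.0236 to 1.00 over the alternatives). The copy gsk3ba, at 83.7 to 102 in the libraries, overlapped between the groups (0.02 ± 0.11). The co-repressor gene tle3a was at 48.6, 52.7 and 61.8 with Galloflavin, against 75.3, 68.8 and 71.5 with DMSO (-0.40 ± 0.11). The co-activator gene crebbpa was at 95, 91.4 and 87.1 with Galloflavin, against 108, 118 and 97.3 with DMSO (-0.23 ± 0.10). Both were lower without overlap. Their copies tle3b (0.15 ± 0.11) and crebbpb (-0.02 ± 0.11) overlapped between the groups, and tle3b was higher with Galloflavin in each batch. The polarity genes prickle1b (-0.40 ± 0.10) and ptk7a (-0.25 ± 0.10) were also lower without overlap. The copy prickle1a went the other way (0.34 ± 0.17), higher with Galloflavin in each batch but with overlapping groups. Of the polarity genes at an unadjusted p under 0.05 in limma, 2 were below 0 and 1 above, and the latter is not reported here. Among reported targets cd44a, which encodes a hyaluronan receptor, had 425, 494 and 505 with Galloflavin, against 324, 366 and 363 with DMSO (0.43 ± 0.10; limma adjusted p = 0.602; DESeq2 with batch as a block 0.0357, within 0.0357 to 1.00). The feedback inhibitor nkd2b, chosen after its values were seen, had 13.7, 14.6 and 5.05 in Galloflavin B1, B2 and B3, against 32.7, 28.7 and 11.9 in DMSO B1, B2 and B3. It was lower with Galloflavin in each batch and also lowest in B3, and DMSO B3 was below Galloflavin B1 and B2 (-1.07 ± 0.47; limma adjusted p = 0.690; DESeq2 with batch as a block 3.77e-06, within 3.77e-06 to 1.00). Its relative nkd1, another feedback gene, was at 10.2 ± 0.786 with Galloflavin and 11.1 ± 1.42 with DMSO (SD, n = 3 each).

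Markers of cell types and of division were set beside these values. Of 7 basal epidermis markers 5 were above 0, with a median log2 fold change of 0.20. The highest was cldni (0.45 ± 0.13), named here after its values were seen. Below 0 were krt5 (-0.11 ± 0.23), which makes up most of the sum of this list, and krtt1c19e (-0.52 ± 0.74). All 5 proliferation markers were lower with Galloflavin in each batch, with a median of -0.23 and summed levels of 487 to 585 with Galloflavin and 585 to 658 with DMSO. The osteoblast markers in the table summed to 271 to 482 with Galloflavin and 259 to 443 with DMSO, 4 of 6 above 0. Most of this sum is col10a1a and spp1. In the other direction sp7, chosen after its values were seen, was lower without overlap. It had 6.29, 8.31 and 5.75 with Galloflavin, against 10.5, 8.43 and 8.48 with DMSO (-0.39 ± 0.16, limma adjusted p = 0.690). Of 11 blastema and mesenchyme markers 7 were below 0, with a median of -0.09. Above 0 were 3 of 4 superficial epidermis markers, 1 of 4 of the wound epidermis and actinodin list, 2 of 3 endothelial, 2 of 2 neutrophil, 1 of 5 pigment cell, 2 of 3 Schwann cell and 2 of 3 erythrocyte markers. The neutrophil values were small (mpx 0.05 ± 0.37, npsn 0.01 ± 0.53). The ratios of their means were 0.917 and 0.794, and both genes were lower with Galloflavin in B3. The erythrocyte median ran from -1.34 in B1 to 1.26 in B3. Macrophage markers summed to 191 to 222 with Galloflavin and 209 to 216 with DMSO. Their sum hides opposite members: mfap4.1, chosen after its values were seen, had 19.1, 15.2 and 11.1 in Galloflavin B1, B2 and B3, against 6.41, 6.60 and 8.80 in DMSO B1, B2 and B3. All Galloflavin libraries were above all DMSO libraries (0.95 ± 0.21; limma adjusted p = 0.602), and it passed with DESeq2 (0.0144, and 0.0271 with batch as a block, within 0.0144 to 1.00 over the alternatives). The macrophage gene marco was also higher without overlap, at 64.3, 56.3 and 52.8 with Galloflavin, against 50.6, 45.0 and 49.9 with DMSO. The other 2 macrophage markers, csf1ra (-0.16 ± 0.16) and mpeg1.1 (-0.23 ± 0.16), were below 0 with overlapping groups. The median log2 fold change of the 4 macrophage markers was 0.04. In limma 0 of the markers passed between Galloflavin and DMSO, and with DESeq2 mfap4.1 alone did; their part in the values of wif1, sfrp2 and the other Wnt genes was not tested.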

How the data were processed

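Galloflavin and DMSO libraries, 3 each, were compared. Reads were aligned with STAR 2.7.10a to GRCz11, per the submitters' processing notes; libraries were stranded mRNA, per the labels' protocols. How reads were counted and normalised is not given in the sources used here, beyond STAR. The table the authors deposited holds a normalised count signal per gene. All its values were whole multiples of 1 read's worth (within 0.01 of a read), so reads were recovered, and library-wise TMM-scaled CPM over the deposited values were 0.997 to 1.005. Levels were analysed as log2 of the value plus a pseudocount of 1, for genes with a mean of at least 1. The test was limma 3.58.1 with a mean trend in R 4.3.3, two-sided, without a block, Benjamini-Hochberg adjusted over all 15806 genes, at 0.05. Fold changes on this scale understate those of low genes. B3 was compared with B1 and B2 with the injection as a term. Alternatives were batch as a block, pseudocount 0.5, no filter, quantile or median-of-ratios scaling, a minimum mean of 5, edgeR 4.0.16 and DESeq2 1.42.0 on recovered reads, and leaving out each library and batch. Scripts were tested on simulated counts.

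The labels name the batches, so libraries of a batch are paired; their deviations from the group means correlated at 0.10 in B1, 0.08 in B2 and 0.49 in B3, with a highest value of 0.38 across batches. The members and gene lists were chosen with earlier results of these data known. Genes named were the 10 with the lowest unadjusted p, ligands, readouts and inhibitors known from fins, the highest gene of each role and, for pathway lists, up to 3 per list with an unadjusted p under 0.05, of which 1 is not reported here; other members were described as members. The gene wnt7ba was not analysed here. The p-values of the main fit set the group difference against the spread between pools of fins within a group. Without a block, this spread includes differences between batches.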

Additional observations from a re-analysis of the deposited data

How the results depend on the processing

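Over 33 named genes and their alternative settings 582 of 622 values kept direction and side of the threshold, 34 had the other sign, 6 newly passed (wif1, gsk3bb, cd44a, nkd2b and mfap4.1 with DESeq2 and batch as a block, mfap4.1 also without it) and 0 ceased to pass; 24 genes kept their sign throughout. The values of the other sign belonged to 9 genes, whose log2 fold changes lay between -0.17 and 0.14. For axin2 they were 2.49e-04 with median-of-ratios scaling, 7.60e-04 with DESeq2 and 3.07e-04 with DESeq2 and the block. Quantile normalization gave 0.00407 for wnt3a, -0.0718 for ctnnb1, 0.00384 for notum1a and -0.0263 for dkk3b. For wnt3a edgeR gave 0.0682 and DESeq2 0.0649. Leaving out 1 library or 1 batch gave -0.19 to 0.0949 for axin2, -0.0570 to 0.29 for rspo1, -0.40 to 0.37 for dkk1a, -0.0323 to 0.0642 for ctnnb1, -0.29 to 0.30 for notum1a, -0.0788 to 0.11 for dkk3b, -0.11 to 0.45 for wnt5a, -0.22 to 0.34 for wnt3a and -0.52 to 0.0824 for wnt7aa. Genes passing between Galloflavin and DMSO numbered 0 in limma with the replicate block, 83 with DESeq2 and 149 with DESeq2 and the block, and 0 to 1 when libraries were left out; the Wnt genes among them were 0, 0, 1 and 0. The block changed no call in limma or edgeR. Genes passing between B3 and the other batches numbered 9 at a minimum mean of 5, 10 with edgeR, 611 with DESeq2 and 0 to 650 when 1 library was left out: 358 without Galloflavin B1, 10 without Galloflavin B2, 650 without DMSO B1, and 0 without Galloflavin B3 or DMSO B3. The Wnt genes among them were 2 with DESeq2 and 0 to 3 when 1 library was left out. With 1 B3 library left, that library is assumed to vary like the others. The causes were not tested.

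Depth limits the scarce genes most: wnt4, dvl1b, fzd8a and wnt3a rest on 8 to 66 reads per library, and 6 Wnt genes were not tested. With 3 pools a group, small changes may have been missed, and the smallest detectable change was not computed. A log2 fold change of 0.58, for wif1, did not pass in limma.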
